A study of Rattus norvegicus with 36 samples.

Results

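The comparison set the L5 dorsal root ganglia of rats with a ligated L5 spinal nerve against the neighbouring L4 ganglia of operated rats, both collected 28 days after surgery. It was chosen by the array titles and rests on 12 of the 36 arrays of the series: 1 pool of RNA per ganglion, put on 2 arrays of each of 3 Affymetrix RG_U34 chip types (A, B and C), which carry different probe sets. Both pools came from animals with the same operation, and only the nerve of the L5 ganglion had been ligated. Pools held ganglia of 30 rats where the labels give a number, which those of the L4 arrays on chip C do not; strain, sex and age are not in the sources used here. Differences that L5 and L4 ganglia have without any injury cannot be told apart from those of the ligation. The series also holds L5 and L4 pools of 50 days, used here as the repeat of the same contrast, and pools of sham-operated rats in which L4 and L5 ganglia were combined. The submitters state that pooling left no biological replication, so at 28 days there was 1 pool per side and no test.

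Dorsal root ganglia hold the cell bodies of sensory neurons, wrapped by satellite glia, together with Schwann cells, macrophages, vessels and connective tissue. When a spinal nerve is tied, its sensory axons are cut off from the skin and muscle they supply, and their cell bodies are known to turn on injury genes such as Atf3, Gal, Npy and Vip and to turn down many ion channels and transmitters. In the spinal nerve ligation model the L4 ganglion keeps its own axons, but these run in the sciatic nerve beside degenerating L5 axons, so L4 is a neighbour of the injury and not an uninjured ganglion of a healthy rat.

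Values are MAS5 signals on a linear scale, and differences are L5 minus L4 on the log2(signal + pseudocount) scale, with the 2 arrays of a pool averaged. A probe set was called higher or lower in L5 when the difference was at least 1 on that scale (2-fold) and both L5 arrays lay outside both L4 arrays. Of 15721 probe sets tested, 509 were called higher (3.24%) and 497 were called lower (3.16%), and the median difference over all of them was 0.02. Calls were found on all chip types, with 231 higher and 229 lower of 5244 on chip A, 140 and 123 of 5239 on chip B, and 138 and 145 of 5238 on chip C. They named 319 genes that were higher and 346 that were lower, and 161 and 121 further calls belonged to probe sets with no gene or several genes in the annotation. Differences of 2 or more on the log2 scale were seen for 20 probe sets in each direction. Without L5 replicate 2 the lower calls numbered 749. Since the arrays carry a common trimmed mean, a direction here is set against the average level within an array. With arrays scaled to their hybridisation controls instead, the median of all probe sets shifted to -0.72, and with median centring to -0.10. Median centring gave 346 higher and 762 lower calls, which is 31.2% higher against 50.6%.

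The pools of both days were also fitted together with limma, the days standing in as replicates and 2 residual degrees of freedom remaining, which tests the part of the L5 minus L4 difference that both days share. At an adjusted p of 0.05, 41 probe sets were higher in L5 (0.261%) and 158 were lower (1.01%). Without the intensity trend in limma's variance prior 0 passed in either direction, although 2831 then had an unadjusted p under 0.05 against 3053 with it, so the limma calls named below depend on that choice. They also depend on single pools: 292 were higher and 358 lower with the 28-day L5 pool left out, 302 and 466 with the 50-day L5 pool left out, 53 and 45 with the 28-day L4 pool left out, 81 and 134 with the 50-day L4 pool left out, and 67 and 169 with the 28-day sham pool left out.

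At 28 days, single technical arrays of the same RNA had correlations of 0.915 to 0.958 over the probe sets tested. The L5 and L4 pools, each averaged over its 2 arrays, had correlations of 0.907 to 0.926. Averaging lessens array noise, so these ranges are not on the same measure. Median signals of chips A, B and C were 55.9 to 63.1, 76.5 to 76.8 and 84.5 to 88.7 on the L5 arrays, against 51.0 to 52.2, 70.6 to 71.7 and 79.9 to 80.0 on the L4 arrays. On chip C the second array of every pool reached a higher maximum signal than the first, in L5 and L4 alike. A sham array of chip B is titled 28 days and described as 50 days. It correlated at 0.952 with the other sham array of 28 days and at up to 0.932 with those of 50 days, and it is used by its title. Of the list of general neuronal markers, 25 members were tested, 0 were called higher and 2 lower, the median difference was -0.36, and none was listed at 0.

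Of the genes known from axon injury, 3 peptides and 4 transcription factors were called higher in the L5 pool. Vip, the vasoactive intestinal peptide, had signals of 1154 and 903 on the L5 arrays, against 177 and 198 on the L4 arrays and 98.3 and 126 on the sham arrays. The L5 arrays lay far above all others, the difference was 2.33 (5.01-fold), and both of its probe sets pointed the same way. At 50 days it was 1.43, and the common difference of 1.88 ± 0.24 (limma SE, n = 2 pools per condition) had an adjusted p of 0.018. Npy, neuropeptide Y, had signals of 1088 and 936 in L5, against 419 and 307 in L4 and 186 and 234 in sham. The groups did not overlap, with L4 between L5 and sham, and the difference was 1.46 at 28 days and 0.90 at 50 days (limma adjusted p = 0.032). Gal, the peptide galanin, had signals of 593 and 554 in L5, against 278 and 219 in L4 and 128 and 145 in sham. It followed the same order, L5 above L4 above sham, with a difference of 1.17. At 50 days the difference of Gal was 0.48 and the limma test over both days was missed (adjusted p = 0.13). The list of injury-induced neuropeptides, which also holds the growth cone protein Gap43, had 8 genes on the arrays and 6 tested. Of these 3 were called higher and 1 lower, and the median of the list was 0.91. The member called lower was Crh, corticotropin-releasing hormone, at 23.8 and 9.8 in L5 and 57.2 and 52.0 in L4, a dim gene. Adcyap1, a brighter member, was also below 0 but not called, at 164 and 193 in L5 and 227 and 329.5 in L4. Its difference was -0.59 at 28 days and -0.47 at 50 days.

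Atf3, a transcription factor of the ATF/CREB family induced by axon injury, had signals of 531 and 432 in L5, against 189.5 and 252 in L4 and 146 and 161 in sham. Both L5 arrays were above all L4 and sham arrays, and the difference was 1.09 at 28 days and 1.08 at 50 days (limma adjusted p = 0.037). Jun, a subunit of the AP-1 transcription factor, had signals of 619 and 525 in L5, against 244 and 205 in L4 and 199 and 229 in sham. Its difference of 1.30 was shared by all 4 tested probe sets, yet at 50 days the difference was -0.37. Egr1, an immediate early gene, differed by 1.13 with 1417 and 1203 in L5 and 580.0 and 603 in L4, and Bhlhe40, a helix-loop-helix repressor, by 1.05 with 367 and 363 in L5 and 161 and 170.2 in L4. At 50 days the same differences were 0.07 and 0.00. Of the 4 tested probe sets of Egr1, the others were far dimmer and stood at 0.60, 0.17 and -0.21 at 28 days, none of them called then. Of 21 injury transcription factors tested, 4 were called higher and 0 lower, with a median of 0.55 at 28 days and 0.09 at 50 days. Without L4 replicate 2 the 28-day median was 0.34 relative to all probe sets, against 0.52 with it.

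**Figure D1:**
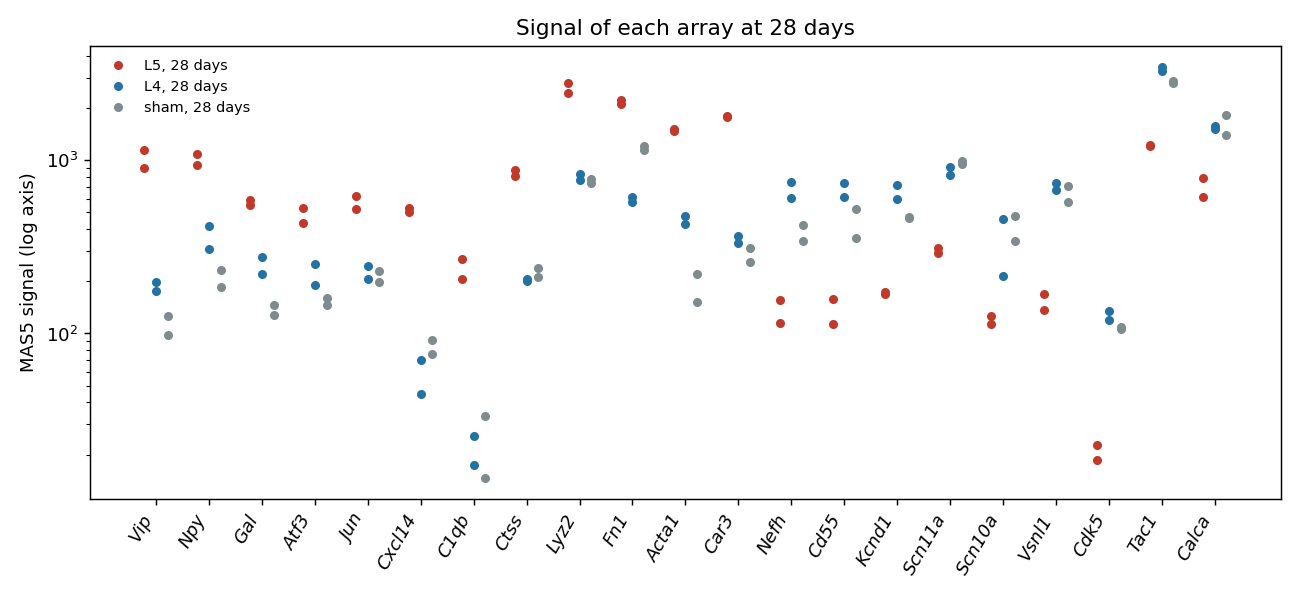
MAS5 signal (log axis) of each 28-day array for 21 named genes, with 2 points each for the L5 pool (red), the L4 pool (blue) and the sham pool (grey). For Vip, Cxcl14, C1qb and Car3 the L5 points stand above the L4 points by the largest steps, and for Nefh, Cd55, Vsnl1 and Cdk5 they stand below.

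The 15 genes with the largest L5 excess differed by 1.97 to 2.93 on the log2 scale, and the 15 with the largest deficit by -2.39 to -1.89. The first was Cxcl14, a chemokine of epithelia and connective tissue, with 502 and 529.6 in L5, against 70.2 and 45.0 in L4 and 76.4 and 91.6 in sham. The L5 arrays stood clear of all others, by 2.93 from L4 (7.62-fold), and all 3 probe sets were higher. At 50 days the difference on the first of them was 1.48 (limma adjusted p = 0.032). The others differed by 1.06 and 0.61 at 28 days and by 0.82 and 0.88 at 50 days. They did not pass the limma test (adjusted p = 0.15 and 0.14). Emp1, an epithelial membrane protein of the peripheral myelin protein family, had 1618 and 1412 in L5, against 403 and 267 in L4 and 400.0 and 559 in sham. Both L5 arrays lay above all L4 and sham arrays, and the difference of 2.14 was followed by 0.93 at 50 days (limma adjusted p = 0.044). A second, dimmer probe set of Emp1 stood at 0.77, with overlapping arrays of 104 and 20.8 in L5 and 16.0 and 34.1 in L4 (limma adjusted p = 0.31). Gpnmb, a membrane glycoprotein of macrophages and other phagocytes, had 309 and 310.2 in L5, against 48.4 and 39.5 in L4 and 40.6 and 19.1 in sham. It was higher in L5 by 2.36 at 28 days, while at 50 days the difference was -0.93.

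Since Jun and Atf3 belong to families that bind AP-1 and CRE elements, the promoters of the 15 and 15 genes were searched for TGANTCA (AP-1) and TGACGTCA (CRE). Both motifs read the same on both strands, and they do not overlap in their letters as searched. RefSeq promoters of assembly GRCr8, from 250 bases before to 50 after each gene's start, matched 10 of the higher and 12 of the lower genes. The AP-1 letters were in 3 of the 10 (30.0%) and in 1 of the 12 (8.33%), Cntn1, and in 2453 of all 33469 promoters (7.33%). The CRE letters were in 0 of the 10, 0 of the 12 and 612 of all promoters (1.83%). The 3 promoters with AP-1 letters among the higher genes are printed 5′ to 3′, the match in capitals, so that each can be read beside its gene's values. Cxcl14 lies at chr17:8322900-8323199, plus strand, Emp1 at chr4:169943980-169944279, plus strand, and Gpnmb at chr4:79340878-79341177, plus strand. A match of these letters describes the sequence and is not a bound site.
Cxcl14: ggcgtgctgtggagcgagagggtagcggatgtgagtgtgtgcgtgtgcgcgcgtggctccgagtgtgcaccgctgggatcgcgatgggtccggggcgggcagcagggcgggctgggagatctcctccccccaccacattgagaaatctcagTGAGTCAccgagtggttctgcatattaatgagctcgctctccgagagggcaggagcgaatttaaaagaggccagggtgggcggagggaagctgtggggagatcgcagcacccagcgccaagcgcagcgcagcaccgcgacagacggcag
Emp1: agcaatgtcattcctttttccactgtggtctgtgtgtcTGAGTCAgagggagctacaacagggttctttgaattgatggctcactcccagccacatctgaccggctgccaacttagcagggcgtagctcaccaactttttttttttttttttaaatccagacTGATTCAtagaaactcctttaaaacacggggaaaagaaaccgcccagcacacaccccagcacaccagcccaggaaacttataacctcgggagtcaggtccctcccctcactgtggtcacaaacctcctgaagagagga
Gpnmb: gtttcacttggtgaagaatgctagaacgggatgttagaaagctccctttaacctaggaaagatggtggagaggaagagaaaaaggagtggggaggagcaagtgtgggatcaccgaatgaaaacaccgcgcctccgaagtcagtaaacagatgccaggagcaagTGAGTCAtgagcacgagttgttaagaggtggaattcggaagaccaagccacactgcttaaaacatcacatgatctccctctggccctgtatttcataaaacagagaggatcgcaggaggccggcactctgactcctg

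Among the 15 genes with the largest L5 excess at 28 days, C1qb and C1s are on the complement list, and Gpnmb, Ctss and Tyrobp on the macrophage list. These lists were chosen with earlier results of these data known, and whether their members are over-represented was not tested. C1qb, a chain of the C1q complex that starts the classical complement pathway, had 269 and 206 in L5, against 25.5 and 17.4 in L4 and 33.6 and 14.6 in sham. Only the L5 arrays were high, by 2.86 (7.28-fold), and at 50 days the difference was -0.03. C1s, a protease of the same complex, had 774 and 723 in L5, against 139 and 142 in L4 and 298 and 195 in sham. Here sham lay between L5 and L4, and the difference was 2.31 at 28 days and 0.08 at 50 days. C1qa differed by 1.66 (418 and 374 in L5, 111 and 115 in L4) and C1r, the other protease, by 1.23 (463 and 493 in L5, 188 and 206 in L4). Of 17 complement genes tested, 5 were called higher (the fifth, C2, outside the rule for named genes, by 1.10) and 0 lower. The median of the list was 0.01, with 9 members above 0 and 8 below, and relative to all probe sets it was -0.010, and 0.27 without L5 replicate 1. None of the 17 passed the limma test over both days.

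Ctss, the lysosomal protease cathepsin S, had 876 and 809 in L5, against 201 and 206 in L4 and 212 and 239.5 in sham. Tyrobp, a signalling adaptor of macrophages and microglia, had 217 and 271 in L5, against 36.2 and 58.7 in L4 and 87.7 and 91.4 in sham. Lyz2, lysozyme, had 2799 and 2434 in L5, against 830.3 and 775 in L4 and 784 and 742 in sham. In all of them the L5 arrays stood clear of L4 and sham, with differences of 1.98, 1.98 and 1.69. At 50 days the differences were 0.21, 0.17 and -0.10. Of 24 macrophage markers tested, 9 were called higher and 1 lower at 28 days, with a median of 0.36, and 16 of the 24 were above 0. At 50 days, where 3.98% of all probe sets were called higher and 2.81% lower, 0 of the 24 were called higher and 1 was called lower, with a median of 0.17. The summed signal of the list was 13162 to 14589 on the L5 arrays and 11839 to 11892 on the L4 arrays, with 10709 to 11822 in sham. In these bulk samples more cells of a type and more RNA per cell cannot be told apart.

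Cd74, the invariant chain that escorts MHC class II molecules, had 876 and 863 in L5, against 243 and 185 in L4 and 128 and 145 in sham. The groups did not overlap, and the difference was 1.97 at 28 days and 1.46 at 50 days (limma adjusted p = 0.022). Its 4 tested probe sets disagree: a second was called higher by 1.21, and the remaining pair, both on chip C, stood at -0.08 and -0.02. At 50 days the second stood at 0.08 and the pair at -1.33 and 0.43, and none of them passed the limma test. The class II chains RT1-Da and RT1-Db1 differed by 1.80 and 1.02, with 2094 and 2036 in L5 and 580.0 and 590.2 in L4 for RT1-Da. They were the 2 of 25 antigen presentation genes called higher, and 0 were called lower, with list medians of 0.23 and, at 50 days, 0.43. Among 20 cytokines and chemokines 4 were called higher and 0 lower, with medians of 0.26 and, at 50 days, 0.58. Without L5 replicate 2 the 28-day median was 0.36 relative to all probe sets, against 0.23 with it. Beside Cxcl14 these were Il18 at 1.40, Cxcl13, a chemokine for B cells, at 1.29, and Il1b at 1.16. Cxcl13 was called higher again at 50 days. Among 9 T cell markers tested, of 22 on the arrays, 1 was called higher, Il2rb, at 103 and 65.2 in L5 and 9.8 and 53.1 in L4. Its difference of 1.30 was 0.53 without L4 replicate 1 and 2.07 without L4 replicate 2.

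Skeletal muscle genes had the highest median of the 34 lists, 0.94 relative to all probe sets against 0.88 for the injury-induced neuropeptides. The neuropeptide list came first with a pseudocount at the 40th percentile, a filter at the 60th, quantile normalization, and without L5 replicate 2 or L4 replicate 1. Acta1, skeletal muscle actin, had 1507 and 1474 in L5, against 430.5 and 479.5 in L4 and 222 and 153 in sham. Car3, a carbonic anhydrase of muscle and fat, had 1805 and 1784 in L5, against 334 and 366 in L4 and 259 and 312 in sham. Myh2, a fast muscle myosin, had 204 and 159 in L5, against 24.4 and 31.2 in L4 and 5.2 and 6.5 in sham. All 3 were high in the L5 pool of 28 days, by 1.69, 2.29 and 2.25, and at 50 days the differences were -0.26, -0.46 and 0.61. A second, dimmer probe set of Car3 stood at -0.60. Of 38 muscle genes on the arrays 28 were tested, 13 were called higher and 0 lower, none was listed at 0, and the median was 0.96 (0.28 at 50 days, with 0 called). The summed signal of the list was 10784 to 10811 on the L5 arrays, against 5241 to 5667 on the L4 arrays and 3936 to 4356 on the sham arrays. Muscle RNA was higher in the L5 pool, as were the called C1 complex genes and the medians of the macrophage and matrix lists, and its part in those results was not tested. Of 10 fat cell markers tested 1 was called higher and 0 lower, and of 12 blood cell markers 0 and 1.

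Of 58 extracellular matrix genes tested, 17 were called higher in L5 and 1 lower, with 47 above 0 and 11 below. Fn1, fibronectin, had 2228 and 2104 in L5, against 613 and 574 in L4 and 1205 and 1144 in sham. Thbs4, thrombospondin 4, had 563 and 529.9 in L5, against 136 and 148 in L4 and 250.5 and 141 in sham. Mgp, matrix Gla protein, had 1906 and 2450.1 in L5, against 753 and 809 in L4 and 1385 and 1330.3 in sham. For Fn1 and Mgp the sham pool lay between L5 and L4. Their differences from L4 were 1.85 for Fn1, 1.86 for Thbs4 and 1.45 for Mgp, and at 50 days they were 0.16, 0.13 and 0.12. The median of the matrix list was 0.59 at 28 days. At 50 days 0 were called and the median was 0.06. At 28 days the median of the list was 0.35 for L5 minus sham and -0.26 for L4 minus sham, so the L5 pool lay above sham and the L4 pool below it. The member called lower was Fbln2, fibulin 2, at 202 and 258 in L5 and 705 and 700.5 in L4. Its difference of -1.55 was followed by -0.93 at 50 days (limma adjusted p = 0.042). Adamts2, which trims procollagen, was higher by 2.26 at 28 days and at -0.44 at 50 days. Fst, follistatin, which binds activin, was at 171 and 166 in L5, 30.2 and 29.0 in L4 and 114 and 78.5 in sham, a difference of 2.10 that stood at 0.33 at 50 days. Msln, mesothelin, a surface protein of the mesothelium, was at 202 and 274 in L5, 19.5 and 34.6 in L4 and 108 and 106 in sham, a difference of 2.45.

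**Figure D2:**
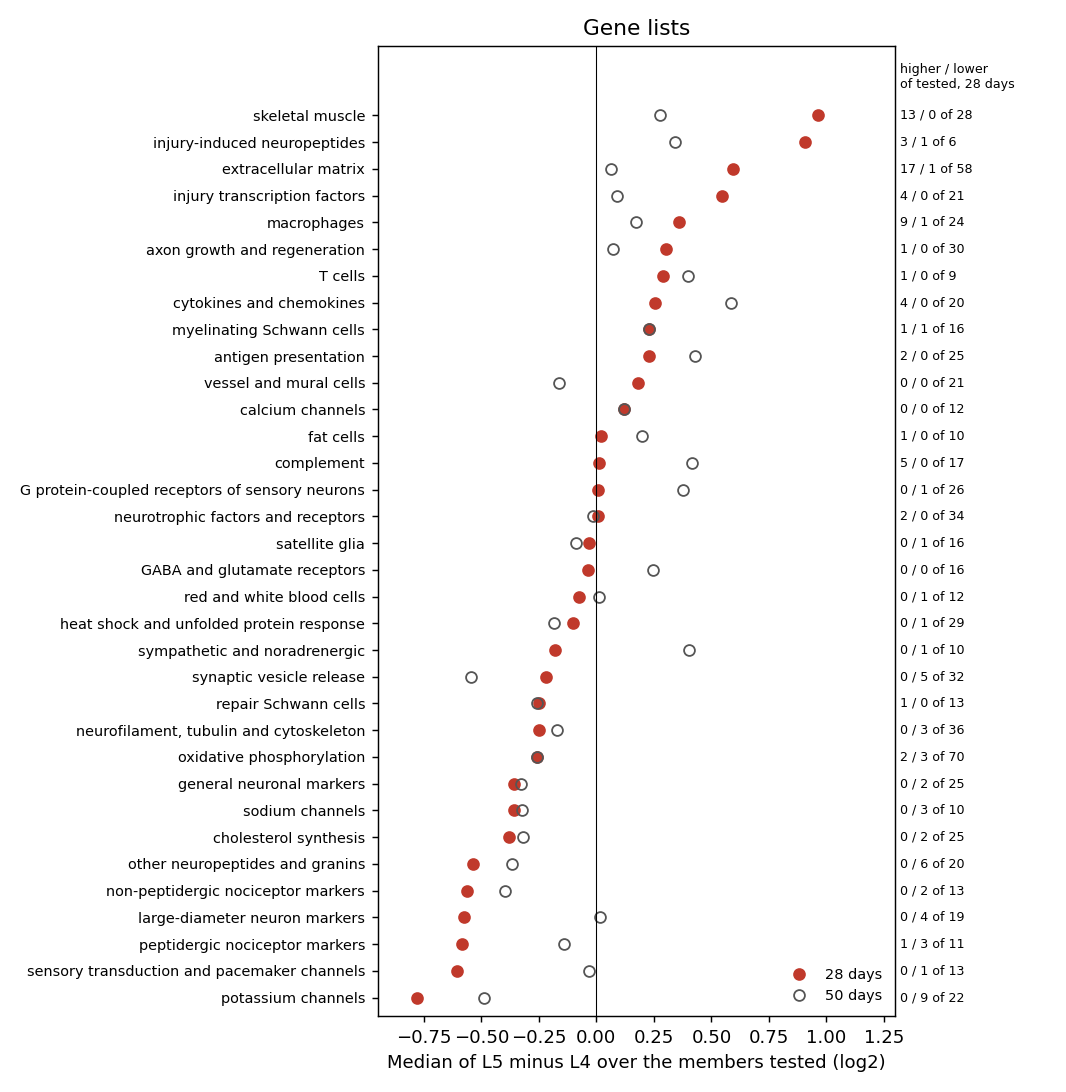
Median L5 minus L4 difference (log2) over the tested members of each of 34 gene lists, at 28 days (red) and 50 days (open), with the numbers called higher and lower at 28 days on the right. At 28 days skeletal muscle (0.96) and injury-induced neuropeptides (0.91) lie at the top, in an order that turns under 5 of the alternatives tried, and potassium channels (-0.78) at the bottom.

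Nefh, Cd55, Cdk5 and Cntn1 were among the 15 genes with the largest deficit in the L5 pool. Each passed the limma test over both days on the probe set given first. Nefh, the heavy neurofilament chain of large myelinated neurons, had 115 and 157 in L5, against 609 and 750.4 in L4 and 424 and 343 in sham. Only the L5 arrays were low, the difference was -2.23 at 28 days and -1.29 at 50 days, and it passed the limma test over both days (adjusted p = 0.017). A second, brighter probe set of Nefh stood at -0.46, and at 0.01 at 50 days (limma adjusted p = 0.58). Nefl, the light chain, had 896 and 816 in L5, against 4327 and 3935 in L4 and 3366 and 3049 in sham on its called probe set, a difference of -2.25. Its other tested probe set, with signals of 7196 and 7136 in L5 and 5425 and 5738 in L4, pointed the opposite way by 0.36, so no direction is given for Nefl. Cd55, a membrane inhibitor of complement activation, had 113 and 159 in L5, against 739 and 617 in L4 and 522 and 358 in sham. All 7 tested probe sets were lower at 28 days, this one by -2.22 and the others by -0.34 to -2.17. At 50 days this one stood at -1.55 (limma adjusted p = 0.0085) and the others between -1.03 and 0.02. Of the others only the one at -1.03 passed the limma test (adjusted p = 0.036). The brightest probe set was at -0.97 and, at 50 days, at -0.25 (limma adjusted p = 0.16).

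Cdk5, a kinase of postmitotic neurons, had 22.7 and 18.6 in L5, against 119 and 134 in L4 and 109 and 106 in sham. Cntn1, contactin 1, an axonal adhesion molecule, had 60.2 and 17.5 in L5, against 182 and 182 in L4 and 118 and 53.0 in sham. Vsnl1, a neuronal calcium sensor, had 169 and 136 in L5, against 675 and 743 in L4 and 708 and 573 in sham. As the rule for calls requires, the L5 arrays lay below both L4 arrays for all 3, by -2.06, -2.05 and -2.08. The 50-day differences of -1.67 for Cdk5 and -1.65 for Cntn1 were close to these, with limma adjusted p of 0.022 and 0.027, whereas Vsnl1 stood at -0.46 (0.090). Faim2, an inhibitor of Fas-driven cell death in neurons, had 27.6 and 12.5 in L5, against 154 and 157 in L4 and 123 and 126 in sham. It had the largest deficit at 28 days, -2.39, and stood at -0.02 at 50 days. Septin8 was lower by -2.22 on 1 probe set, while its 3 others lay between -0.07 and 0.03. The other genes among the 15 were Tcf25 (-2.25), the mitochondrial import pore Tomm40 (-2.14), Ubqln4 (-2.04), the malate dehydrogenase Mdh1 (-2.04), the small GTPase Mras (-1.98), the sphingosine kinase Sphk2 (-1.97) and the histone methyltransferase Ezh1 (-1.89). Of these 7, Sphk2 and Ezh1 passed the limma test over both days (adjusted p = 0.027 and 0.047). A brighter probe set of Ezh1, at 565 and 480 in L5 and 578 and 653 in L4, stood at -0.23 (limma adjusted p = 0.46). Other probe sets stood at -0.28 to -0.57 for Tcf25, -0.53 for Tomm40, -0.88 and -0.47 for Mdh1 and 0.16 for Mras. None of these was called.

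Among the potassium and sodium channel genes tested, 12 were called lower in the L5 pool and 0 higher. At 50 days, on the probe set counted for each gene, all called members but Kcna1 and Kcnj11 differed with the same sign. Kcnd1 and Kcnd3 encode Kv4 subunits, which carry the A-type current that slows repetitive firing. Kcnd1 had 169 and 174 in L5, against 594 and 718 in L4 and 465 and 472 in sham. The L5 arrays were the low ones, by -1.83 at 28 days and -1.51 at 50 days (limma adjusted p = 0.018). Kcnd3 had 77.5 and 30.0 in L5, against 155 and 175 in L4 and 234 and 172 in sham, and differed by -1.51 and, at 50 days, by -2.06 (limma adjusted p = 0.022). Without L5 replicate 2 the 28-day difference of Kcnd3 was -0.97, and its second probe set differed by -0.25. Kcns1, a silent subunit that modifies Kv2 channels in large neurons, had 36.9 and 104 in L5, against 155 and 238 in L4 and 232 and 194 in sham, a difference of -1.43 (limma adjusted p = 0.044) that was -0.82 without L5 replicate 1. Kcna1, a Kv1 subunit of myelinated axons, differed by -1.27, with 321 and 410.3 in L5 and 925 and 865 in L4. It stood at 0.01 at 50 days, when its L4 arrays were far apart at 477 and 970. A second, dimmer probe set of Kcna1 was not called, and stood at -0.74 and, at 50 days, at -0.70 (limma adjusted p = 0.083). Kcnj11, the pore of ATP-sensitive potassium channels, was at 30.6 and 25.1 in L5 and 101 and 109 in L4. Its difference of -1.54 was followed by 0.49 at 50 days, when both L5 arrays were above both L4 arrays. Of 38 potassium channel genes on the arrays 22 were tested, and 0 were called higher and 9 lower at 28 days, with a median of -0.78. At 50 days 0 and 3 were called, with a median of -0.49, and 4 of the 22 passed the limma test over both days as lower.

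Scn11a and Scn10a encode Nav1.9 and Nav1.8, the sodium channels of small nociceptive neurons that resist tetrodotoxin. Scn11a had 293 and 314 in L5, against 920.3 and 824 in L4 and 954 and 989.9 in sham. Its groups did not overlap, and it differed by -1.48 at 28 days and -1.20 at 50 days (limma adjusted p = 0.020). Scn10a had 126 and 113 in L5, against 216 and 461 in L4 and 480.2 and 342 in sham. The 2 L4 arrays were far apart, and the difference was -1.31, and -0.79 without L4 replicate 2 (limma adjusted p = 0.039, with -0.89 at 50 days). Scn1a, Nav1.1 of larger neurons, had 144 and 70.6 in L5, against 309.8 and 333 in L4 and 344 and 387 in sham, and differed by -1.54 (limma adjusted p = 0.040). Scn9a, Nav1.7, was at 198 and 199.7 in L5, 197 and 215 in L4 and 291 and 269 in sham. The L5 arrays of Scn9a lay between the L4 arrays, the difference was -0.05, and a second, dim probe set stood at 0.32. Of 10 sodium channel genes tested, 0 were called higher and 3 lower, with a median of -0.36. Of 12 calcium channel genes and 16 GABA and glutamate receptor genes, 0 were called in either direction. With 3.24% of all probe sets called higher and 3.16% lower, lists this short can hold 0 calls without differing from the rest. Cacna2d1, the calcium channel subunit that binds gabapentin, had 1065 and 1463 in L5, against 825 and 856 in L4 and 464 and 502 in sham. Its L5 arrays were the highest, but the difference of 0.56 was below the threshold. Chrna3, a nicotinic receptor subunit, was at 11.4 and 48.7 in L5 and 102 and 136 in L4, lower by -1.76 at 28 days and by the same -1.76 at 50 days (limma adjusted p = 0.022). Without L5 replicate 1 its 28-day difference was -1.09.

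Of 20 other neuropeptide and granin genes 6 were called lower in L5, as were 5 of 32 genes of synaptic vesicle release, and 0 of either list were called higher. Tac1, the precursor of substance P, had 1213 and 1223 in L5, against 3482 and 3292 in L4 and 2808 and 2875 in sham. The groups were far apart, by -1.47, and a second probe set gave -1.45. At 50 days the difference was -0.54 on the first, with a limma adjusted p of 0.054 over both days, and the second passed (0.047). Calca, the precursor of CGRP, had 795 and 614 in L5, against 1574 and 1519 in L4 and 1829 and 1402 in sham, a difference of -1.13 (limma adjusted p = 0.055, with -0.68 at 50 days). Scg2, a granin of dense-core vesicles, was at 312 and 180.5 in L5 and 749.5 and 661 in L4 (-1.52, limma adjusted p = 0.028). Scg5, a chaperone of the prohormone convertase PC2, was at 356 and 346 in L5 and 992 and 892 in L4 (-1.39, limma adjusted p = 0.022). A second, dimmer probe set of Scg5 stood at -0.47 and was not called (limma adjusted p = 0.19). Pcsk2, PC2 itself, was at 13.9 and 81.0 in L5 and 139 and 134 in L4 (-1.57, limma adjusted p = 0.047). The rule for calls puts every L5 array of these genes below every L4 array. The 2 L5 arrays of Pcsk2 differed widely, giving -0.67 without L5 replicate 1 and -2.48 without L5 replicate 2. The median of the neuropeptide and granin list was -0.54 at 28 days and -0.37 at 50 days. Sst, somatostatin, was at 287 and 288 in L5 and 450.5 and 478 in L4, at -0.67 below the threshold, while a dimmer probe set was called at -1.26. The vesicle release list had medians of -0.22 and, at 50 days, -0.54, with 12 of its members above 0 at 28 days. Vamp1, a vesicle SNARE, was at 1451 and 1497 in L5 and 3697 and 3688 in L4, and all 5 of its probe sets were lower. Nsf, the ATPase that recycles SNARE complexes, was at 302 and 341 in L5 and 1024 and 1004 in L4, and passed the limma test (adjusted p = 0.047).

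The lists of neuron class markers had medians below 0 at 28 days, although most members were not called. General neuronal markers did too, with a median of -0.36, 18 of 25 members below 0 and a summed signal of 39532 to 42312 on the L5 arrays, against 45841 to 56036 on the L4 arrays and 46908 to 52816 on the sham arrays. Their part in the channel, peptide and neuron class results was not tested. The neuron class lists share called members with the channel, peptide and general neuronal lists, so their calls are not separate results. The shared lower calls were Scn1a, Kcns1, Kcna1 and Vsnl1 for large-diameter neurons. For peptidergic neurons they were Calca, Tac1 and Nmb, and for non-peptidergic neurons Scn10a and Scn11a. Of 19 large-diameter neuron markers 0 were called higher and 4 lower, with a median of -0.58, which was 0.01 at 50 days. Of 11 peptidergic nociceptor markers 1 was called higher, Gal, and 3 lower, with a median of -0.59. Relative to all probe sets it was -0.61, and -0.35 without L4 replicate 2. Of 13 non-peptidergic markers 0 were called higher and 2 lower, with a median of -0.56. P2rx3, the ATP receptor of non-peptidergic neurons, was at 318 and 352 in L5 and 557 and 458 in L4, a difference of -0.57 that was not called. Trpv1, the capsaicin receptor, was at 43.8 and 96.5 in L5 and 143 and 106 in L4, and its -0.79 was also below the threshold. Bdnf, a neurotrophin made by some of these neurons, was at 97.2 and 23.1 in L5 and 115 and 98.2 in L4. The L5 arrays of Bdnf disagreed with each other, and of its 4 probe sets 2 had the same sign. The mu opioid receptor Oprm1 was at 21.0 and 61.3 in L5 and 49.1 and 23.9 in L4 on its brightest probe set, with overlapping arrays, while another, dimmer one was called higher by 1.30. Among 30 genes of axon growth and regeneration 1 was called higher and 0 lower, with a median of 0.30. Relative to all probe sets it was 0.28, and 0.18 without L5 replicate 1. Gap43, a growth cone protein, had 3014 and 2476 in L5, against 1754 and 1749.8 in L4 and 1674 and 1561 in sham. The L5 arrays of Gap43 were the highest, with a difference of 0.64, below the threshold. Reg3b, a secreted lectin of injured neurons, was at 79.4 and 114 in L5 and 35.9 and 49.2 in L4, a difference of 0.97 just under it.

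In each glial list at most 1 member was called per direction, too few to read as a result. Over all probe sets 3.24% were called higher and 3.16% lower. Of 16 satellite glia markers 0 were called higher and 1 lower, Fabp7, a fatty acid binding protein, at 59.2 and 67.1 in L5 and 188 and 199.8 in L4. The list of myelinating Schwann cells, which also holds Cldn11 and Mog, genes of oligodendrocyte myelin, had 16 members tested. Of these 1 was called higher, the tight junction protein Cldn11 at 1.43, and 1 lower, the myelin oligodendrocyte glycoprotein Mog at -1.65. The list median was 0.23, and the calls of Cldn11 and Mog give no direction for Schwann cells. Of 13 repair Schwann cell markers 1 was called higher and 0 lower. The median of that list was -0.25, or -0.27 relative to all probe sets, and on the second scale -0.069 without L5 replicate 1 and -0.14 without L5 replicate 2. S100b, a glial calcium-binding protein, was called higher by 1.71 on 1 probe set and stood at -0.66 on a far brighter one, with 2040 and 2285 in L5 and 3566 and 3260 in L4, so no direction is given. Of 70 oxidative phosphorylation genes 2 were called higher and 3 lower, and the median was -0.26 at both days. Atp5mc3, a subunit of ATP synthase, was at 708 and 490.1 in L5 and 1424 and 1486 in L4 (-1.27, limma adjusted p = 0.032). Of 25 cholesterol synthesis genes 0 were called higher and 2 lower, with a median of -0.38. Relative to all probe sets it was -0.40, and -0.25 without L5 replicate 2. Of 21 vessel and mural cell markers 0 were called, which the shares over all probe sets also allow in a list this short. Among 34 neurotrophic factor genes 2 were called higher and 0 lower.

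The sham pool of 28 days, which combined L4 and L5 ganglia, was set beside the calls. Its distances were counted for called probe sets only, with no share over all probe sets. Which ganglion had changed was not tested. The sham pool was nearer to L4 than to L5 for 364 of the 509 higher calls (71.5%) and for 386 of the 497 lower calls (77.7%). By gene, 99 of the higher and 144 of the lower calls had L5 at least 1 from sham, with arrays apart, and L4 within 0.5 of sham. The reverse, L4 at least 1 from sham and L5 within 0.5, held for 15 and 16 genes. The 5 largest of these in each direction, on their called probe sets, were Ghr, S100b, Tcof1, Stk11 and Krt19, with L4 below sham, and Pdhb, Lgals8, Nploc4, Cln3 and Atf6, with L4 above it. For S100b, whose brighter probe set points the opposite way, no direction is given. Ghr, the growth hormone receptor, had 327 and 176 in L5, against 117 and 17.8 in L4 and 207 and 182 in sham. Its L4 arrays differed widely from each other and were both below the L5 arrays, and its difference from L4 was 3.04 without L4 replicate 1 and 0.96 without L4 replicate 2, against 2.00. Pdhb, a subunit of pyruvate dehydrogenase, had 21.9 and 17.0 in L5, against 140.0 and 105 in L4 and 20.4 and 33.2 in sham on its called probe set. Its 4 other probe sets were lower in L5 as well, by -0.45 to -0.82, and none of those was called.

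The 50-day pools share no array with the 28-day pools and give the same measure again. Of the 509 probe sets called higher at 28 days, 362 were above 0 at 50 days (71.1%, against 51.2% of all probe sets), and 52 were called higher again (10.2%, against 3.98%). Of the 497 called lower, 407 were below 0 at 50 days (81.9%, against 48.8%), and 90 were called lower again (18.1%, against 2.81%). In the opposite direction at 50 days, 8 of the higher calls were called lower (1.57%) and 14 of the lower calls were called higher (2.82%). The median difference of the higher calls was 1.20 at 28 days and 0.23 at 50 days, and that of the lower calls -1.25 and -0.52. Across all tested probe sets the differences of the days correlated at r = 0.32 and rho = 0.33, which describes probe sets of a few pools and is not a test.

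By gene, on the probe set given for each, 3 of the 15 with the largest excess were called higher again at 50 days, and 9 had the same sign. Those called again were Cxcl14, Vip and Cd74, and no other probe set of Cxcl14 or Cd74 was called higher at 50 days. Of the 15 with the largest deficit, 7 were called lower again and 13 had the same sign. The lists of macrophages, matrix and muscle had medians of 0.36, 0.59 and 0.96 at 28 days, and 0.17, 0.06 and 0.28 at 50 days, and those of potassium channels and other neuropeptides were at -0.78 and -0.54, and then at -0.49 and -0.37. Whether a difference at 28 days departs from that at 50 days could not be tested with 1 pool per ganglion and day.

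**Figure D3:**
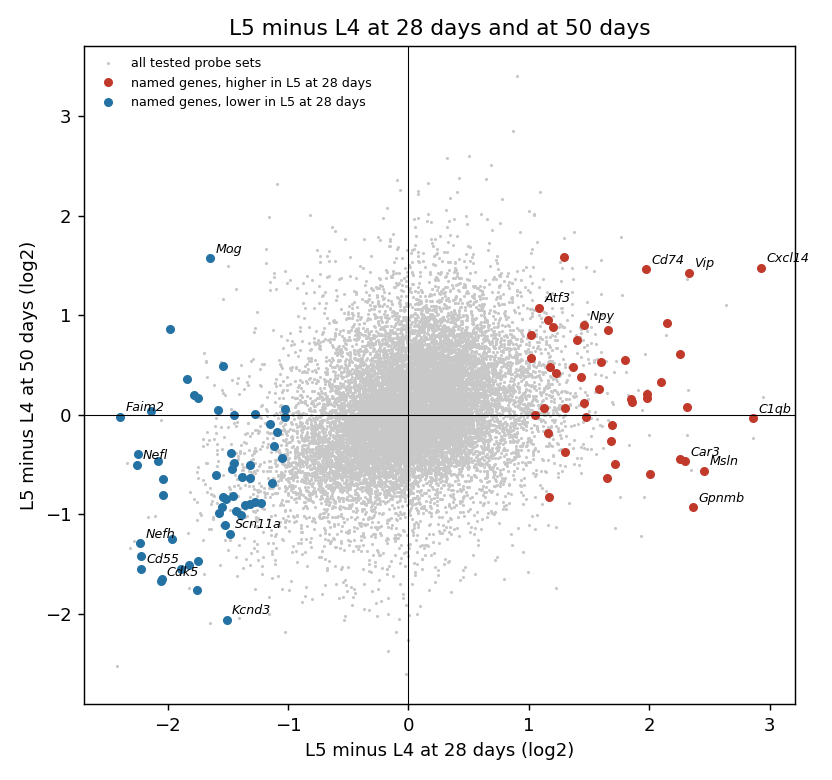
L5 minus L4 difference at 28 days (x axis, log2) against that at 50 days (y axis, log2) for all 15721 tested probe sets (grey) and the named genes called higher (red) or lower (blue) at 28 days. Vip, Cxcl14 and Cd74 lie far from 0 on both axes, while C1qb, Faim2 and Car3 lie far from 0 at 28 days alone.

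**Figure D4:**
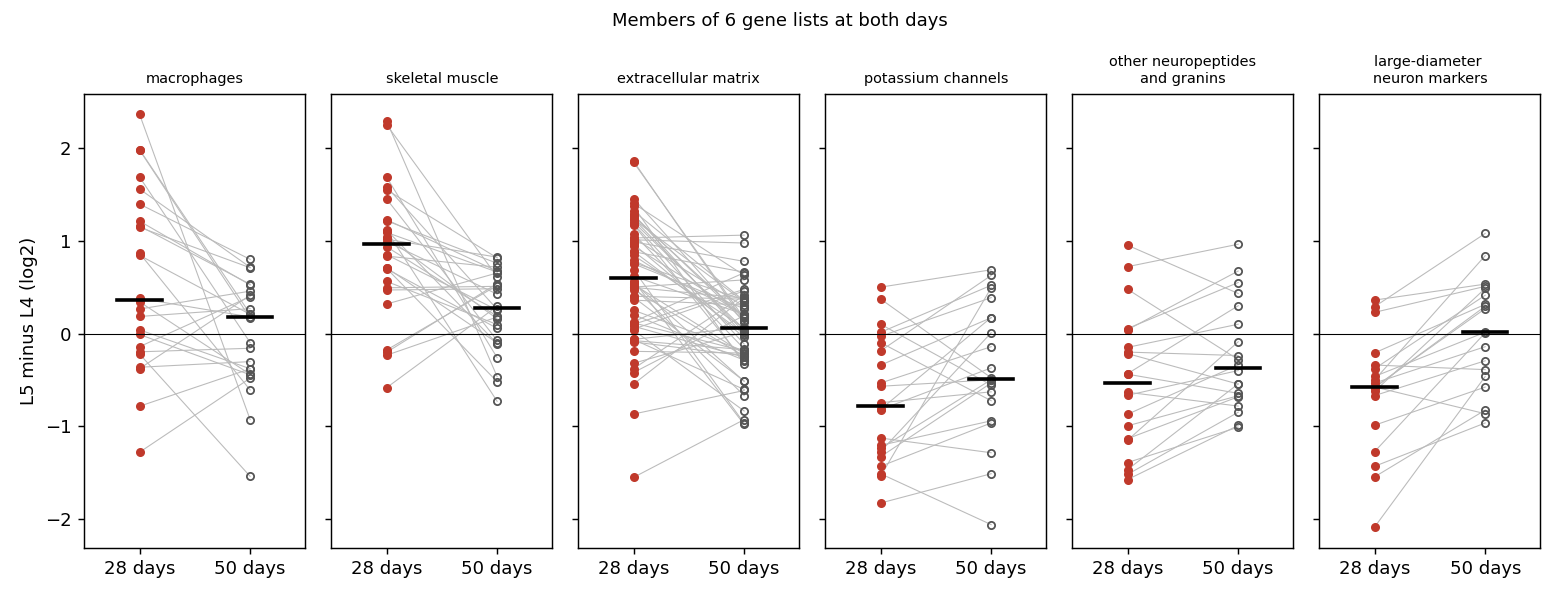
L5 minus L4 difference (log2) of each tested member of 6 gene lists at 28 days (red) and 50 days (open), joined by grey lines, with black bars at the list medians. The medians of the macrophage, muscle and matrix lists lie above 0 at both days and are lower at 50 days, and those of potassium channels and neuropeptides lie below 0 at both days.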

How the data were processed

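Total RNA pools were measured on 36 RG_U34 arrays, of which the 12 L5 and L4 arrays of 28 days form the comparison. The authors deposited linear intensity values from MAS5, per the submitters' processing notes, which name no version. The 2% trimmed mean of each deposited array lay between 150.1 and 150.2. Detection calls were not used, so dim signals show no absence, and the number of arrays limits the precision.

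Signals were scaled to a common trimmed mean per chip type, control probe sets and those under the 40th percentile of mean signal left out, and log2(signal + pseudocount) taken, with the 20th percentile of a chip type as pseudocount (12.9, 17.9 and 20.3 for A, B and C). Folds are on that scale and understate dim genes. limma 3.58.1 (R 4.3.3; lmFit, eBayes with trend) was fitted to the 6 pool means of each chip with condition and day, with Benjamini-Hochberg adjustment over all chips at 0.05. Other steps used Python 3.11.15. The code was tested on simulated data. One gene was annotated for 7006, 5351 and 5821 probe sets on A, B and C, several for 308, 38 and 45, and none for 1426, 3343 and 2864.

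Named genes were the 15 genes called at 28 days with the largest differences in each direction, up to 4 called members of each of 34 lists, 18 genes given in any case, the 5 and 5 largest calls of opposite sign at 50 days, and up to 5 and 5 with L4 away from sham. Lists count each gene by its brightest tested probe set, and summed signals cover tested members. The members, lists and rules were chosen with earlier results of these data known. Since 28-day and 50-day pools stand as replicates, p-values measure the spread between these pools. Alternatives covered pseudocount, filter, scaling, thresholds, left-out arrays and pools, and array numbers as a block.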

Additional observations from a re-analysis of the deposited data

Results flagged for a closer look

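For 10 named genes both L5 arrays lay on one side of both L4 arrays at 28 days and on the other side at 50 days. With 1 pool per ganglion and day, the difference between the days was not tested. Among genes higher in L5 at 28 days, Msln stood at 2.45 and at -0.56 at 50 days, Gpnmb at 2.36 and -0.93, Acta1 at 1.69 and -0.26, and Tcof1, a nucleolar protein, at 1.65 and -0.63. Jun stood at 1.30 and -0.37, and Slc2a4, the insulin-responsive glucose transporter of muscle and fat, at 1.17 and -0.83. Among genes lower in L5 at 28 days, Mras stood at -1.98 and at 0.87 at 50 days, Necap2 at -1.78 and 0.20, Mog at -1.65 and 1.576, and Kcnj11 at -1.54 and 0.49. Mog was the one of these called at both days in opposite directions, with 18.0 and 12.1 in L5 and 68.0 and 80.6 in L4 at 28 days, and 109.9 and 135 in L5 and 37.0 and 28.0 in L4 at 50 days. Of the 4 tested probe sets of Necap2 only the named one was lower in L5 at 28 days, and a second probe set of Mras stood at 0.16. Acta1 belongs to the muscle list, and Slc2a4 was the 1 fat cell marker called higher.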

How the results depend on the processing

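Of 1154 recomputed values of single named genes 1019 stayed within the spread of the arrays and 135 moved. No gene called at 28 days changed sign, while the uncalled Oprm1 (0.07) went to -0.12 with quantile normalization, -0.31 without L4 replicate 2 and -0.49 without L5 replicate 2, and Scn9a (-0.05) to 0.01 without L4 replicate 2. Of the list medians, taken relative to all probe sets, that of T cells (0.27) was -0.011 without L5 replicate 2 and 0.52 without L5 replicate 1. The other medians that crossed 0 were within 0.1 of it, those of complement, fat, blood and satellite glial cells, neurotrophic factors, G protein-coupled receptors, and GABA and glutamate receptors, and they have no direction. The counts of calls at 28 days were 509 higher and 497 lower, and moved by over 1.5 times as follows. A pseudocount at the 40th percentile gave 252 and 254, a filter at the 60th percentile 268 and 323, and no filter 998 higher, since those filters test fewer and more probe sets. A 1.5-fold threshold gave 1732 and 1612, a 3-fold one 64 and 82, and 1 probe set per gene 234 and 211. Hybridisation controls gave 41 and 4425, and median centring 762 lower. Leaving out an array gave 616 to 705 higher and 576 to 749 lower, the last without L5 replicate 2. Without the skeletal muscle list, chosen after seeing the data, 494 and 497 were called. Array numbers do not pair the pools (deviations of same-numbered arrays correlated at -0.028 to 0.028). With same-numbered arrays paired as a replicate block, 236 were higher and 241 lower.

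The share of higher calls repeated at 50 days (10.2%) was 14.9% with a pseudocount of 1, 4.37% at the 40th percentile, 6.95% with quantile normalization, 4.91% with median centring and 4.88% with hybridisation controls, where all probe sets called higher at 50 days made up 5.99%, 1.66%, 3.12%, 2.19% and 0.623%. That of lower calls (18.1%) was 13.8% at the 40th percentile, 23.8% with median centring and 38.6% with hybridisation controls, against 1.23%, 4.66% and 20.6%. The position of sham without chip B, also added later, was nearer to L4 for 69.1% of higher and 74.6% of lower calls.

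The limma counts over both days (41 higher, 158 lower) depended most on the processing. They were 25 higher with a pseudocount of 1, 5 and 14 with no filter, 13 and 46 with quantile normalization, 62 and 757 with median centring, and 21 and 6737 with hybridisation controls. L5 and L4 pools only gave 65 higher. With no trend 0 and 0 passed (2831 at an unadjusted p under 0.05), and a fit to array 1 alone, or to array 2 alone, of every pool also passed 0 and 0 (2169 and 2462). The replicate block with the pool as a random block gave 345 and 841. Leaving out a pool gave 53 to 302 higher and 45 to 466 lower: 292 and 358 without L5 at 28 days, 302 and 466 without L5 at 50 days, 81 higher without L4 at 50 days, 67 higher without sham at 28 days, and 45 lower without L4 at 28 days, where the lone pool is assumed to vary like the others. The cause of these shifts was not tested.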
